A study of Drosophila melanogaster with 3 samples.

Results

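Peaks of the tagged zinc finger protein CG6808 (Zaf1) at divergent promoters were the subject. A divergent promoter here is the DNA between, and 500 bp to either side of, the start sites of a head-to-head pair of protein-coding genes, in which the minus-strand start site lies to the left of the plus-strand one within 1000 bp. Members were chosen by a rule that used measured values. From the authors' reproducibility-filtered peak list (the IDR list, 8091 peaks on dm6), the 300 peaks of highest signal were left out, and a summit had to lie within 500 bp of a protein-coding transcription start site (TSS) whose gene has a head-to-head partner within 1000 bp. This gave 671 members, 8.29% of the list. They were 27.7% (95% Wilson interval 25.9 to 29.5%) of the 2426 summits at protein-coding promoters outside the 300. The other 1755, with no such partner, are called single-direction peaks and served as the comparison.

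The study measured binding by chromatin immunoprecipitation and sequencing (ChIP-seq) in whole prepupae of Drosophila melanogaster of pooled sex that carried a transgene for CG6808 fused to enhanced GFP. The samples were 3 biological replicates of this 1 group, with DNA sheared by sonication to 200 to 800 bp. The labels name an antibody to CG6808 in 1 field and GFP in the descriptions, and give an age of 24 days. Samples without the tag were not analysed here, so there is no background level of this kind. Read depth was unknown, whole prepupae mix many cell types, and how many cells carried a peak cannot be told apart from how much protein was on the DNA in each. The signal is the authors' value per peak and was used to rank and describe peaks within a list. The 3 replicate lists held 30000 regions each, and the signals of replicate 1 ran higher, with a median of 162.2 over the divergent peaks of its strongest 8091 regions, against 71.6 and 69.5 in those of replicates 2 and 3.

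CG6808 belongs to the ZAD zinc finger proteins, a family that expanded in insects. Its members bind DNA through arrays of zinc fingers and can dimerise through the ZAD domain, and several sit at promoters and at insulator sites. In the compact fly genome, neighbouring genes often share 1 stretch of DNA from which they are transcribed in opposite directions. Many such stretches serve broadly expressed genes and carry the DNA replication-related element (DRE, bound by DREF), the overlapping core of BEAF-32, or the Ohler motifs, whereas the GAGA element (bound by Trl) and the TATA box are better known from regulated promoters.

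The stretches between the start sites are short, and 6 are shown, with matches to some of the motifs compared in the results marked. Motif 1 was in none of the 6. They are members of high signal with the summit between the start sites, matched in the strongest regions of each replicate, with start sites 60 to 300 bp apart. Other members met these conditions too, among them RpS27/Nup37 (start sites 186 bp apart) and RpL34a/Trmt61 (229 bp apart), both with a cytosolic ribosomal protein gene. The 6 come from a list of 10 such stretches, with at most 2 lacking the core CACTG, which does not hold every stretch that qualified. Among the 10 listed stretches, RpL34b/CG8132 is the only pair with a cytosolic ribosomal protein gene. Each runs from the base after the minus-strand TSS to the base before the plus-strand TSS, on the plus strand of dm6 (Release 6, RefSeq), with the minus-strand gene named first. Capitals mark matches, on either strand, to the 5-base core CACTG, which in these lines can also read as CAGTG, to the DRE TATCGATA, Motif 7 CANCNCTA, ZIPIC AGGGCTG and Motif 1 GGTCACAC. In the Reps/l(2)gd1 stretch the second capital run is both a ZIPIC and a Motif 7 match. The stretches lie at chr3R:29802946-29803195 (Etfb/CG7789), chr2L:11106646-11106942 (Reps/l(2)gd1), chr3L:15982870-15983134 (brm/Arl1), chr3L:9426759-9427009 (Atat/Shc), chr3L:1645200-1645466 (alphaCOP/CG13919) and chr3R:9401227-9401494 (RpL34b/CG8132). The summits lay 11, 185, 127, 135, 104 and 101 bp to the right of the minus-strand TSS in the same order.
Etfb/CG7789: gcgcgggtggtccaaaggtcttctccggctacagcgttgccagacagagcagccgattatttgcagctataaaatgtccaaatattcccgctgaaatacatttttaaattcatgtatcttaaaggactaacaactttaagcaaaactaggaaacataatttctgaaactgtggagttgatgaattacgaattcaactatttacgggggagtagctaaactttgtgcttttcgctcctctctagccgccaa
Reps/l(2)gd1: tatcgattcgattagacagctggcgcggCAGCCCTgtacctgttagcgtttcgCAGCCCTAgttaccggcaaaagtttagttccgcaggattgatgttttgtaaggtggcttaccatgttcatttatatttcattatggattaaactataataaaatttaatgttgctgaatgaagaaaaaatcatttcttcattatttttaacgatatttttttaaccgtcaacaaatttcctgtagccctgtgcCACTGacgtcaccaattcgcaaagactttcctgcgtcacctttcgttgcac
brm/Arl1: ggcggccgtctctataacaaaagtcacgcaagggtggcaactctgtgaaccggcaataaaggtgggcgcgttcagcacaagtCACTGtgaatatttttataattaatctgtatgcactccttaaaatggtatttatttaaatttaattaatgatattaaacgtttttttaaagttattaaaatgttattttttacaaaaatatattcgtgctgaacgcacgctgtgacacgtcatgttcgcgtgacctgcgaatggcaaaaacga
Atat/Shc: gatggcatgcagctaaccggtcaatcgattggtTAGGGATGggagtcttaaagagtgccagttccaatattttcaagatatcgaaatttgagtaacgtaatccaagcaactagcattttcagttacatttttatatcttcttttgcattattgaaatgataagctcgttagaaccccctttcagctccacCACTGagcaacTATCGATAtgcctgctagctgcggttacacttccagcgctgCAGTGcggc
alphaCOP/CG13919: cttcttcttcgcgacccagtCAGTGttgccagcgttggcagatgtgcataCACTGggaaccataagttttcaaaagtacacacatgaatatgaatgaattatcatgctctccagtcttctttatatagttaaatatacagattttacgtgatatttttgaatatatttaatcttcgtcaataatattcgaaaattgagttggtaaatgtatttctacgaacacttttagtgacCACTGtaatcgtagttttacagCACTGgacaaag
RpL34b/CG8132: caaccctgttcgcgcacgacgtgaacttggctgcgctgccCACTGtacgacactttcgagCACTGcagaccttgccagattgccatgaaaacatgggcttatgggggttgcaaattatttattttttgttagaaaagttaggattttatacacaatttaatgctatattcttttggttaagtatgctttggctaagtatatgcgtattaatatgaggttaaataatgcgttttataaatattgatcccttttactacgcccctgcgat

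No matches to these 5 motifs were found in the first stretch, although its peak was the strongest of the 6. The GC content within 100 bp of the summit was 32.8% at Reps/l(2)gd1 and 31.8% at brm/Arl1, and the motif matches there lay nearer to a start site than the summit did. The alphaCOP/CG13919 stretch held 4 copies of CACTG, and the Atat/Shc stretch held 2 copies beside a DRE. alphaCOP is a coat protein of Golgi vesicles, Atat an acetyltransferase of tubulin and Shc an adaptor of receptor tyrosine kinases.

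The signal of the members ran from 152.5 to 1523, with quartiles at 202.0, 284.4 and 487.9. The cut at the 300 strongest peaks put CG1602/PIG-G (1523, rank 303), Etfb/CG7789 (1483) and Stt3A/bves (1483) just inside. CG10413/CG31789 (1612, rank 270), scramb2/Sk2 (1537) and FoxK/mRpL2 (1532, rank 299) fell just outside. In all, 48 peaks at divergent promoters stood among the 300. The weakest members were Gfat2/Moca-cyp (152.5), rdx/CG3061 (152.8) and l(1)G0469/Prp16 (152.9), at ranks from 8054 to 8080 of 8091. These values follow from the rule and are given as a description.

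The member of highest signal lay between CG1602 and PIG-G, which encodes an enzyme of glycosylphosphatidylinositol anchor synthesis. Its signal was 748.8, 416.8 and 355.1 in replicates 1, 2 and 3, against 1523 in the merged list. Etfb/CG7789, with the beta subunit of the electron transfer flavoprotein, had 802.8, 305.4 and 360.1. Stt3A/bves, with the catalytic subunit of oligosaccharyltransferase, had 789.3, 380.9 and 306.1. In each of these the value of replicate 1 was the highest, and the order of replicates 2 and 3 was not the same. The next 7 were mRpL23/CG9004, colt/HINT1, Reps/l(2)gd1, brm/Arl1, CG32243/CG11357, Elp6/Dic1 and CG43116/E(spl)mdelta-HLH. mRpL23 is a protein of the mitochondrial ribosome, colt and Dic1 are mitochondrial carriers, brm is the ATPase of the Brahma chromatin remodelling complex and Arl1 a Golgi GTPase. Elp6 is a subunit of Elongator, l(2)gd1 acts in endosomal sorting, and E(spl)mdelta-HLH is a repressor of the Notch pathway. Signals of the 10 ran from 708.3 to 829.6 in replicate 1, from 301.2 to 416.8 in replicate 2 and from 294.2 to 360.1 in replicate 3, and their ranges did not overlap between replicate 1 and the other two.

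**Figure D1:**
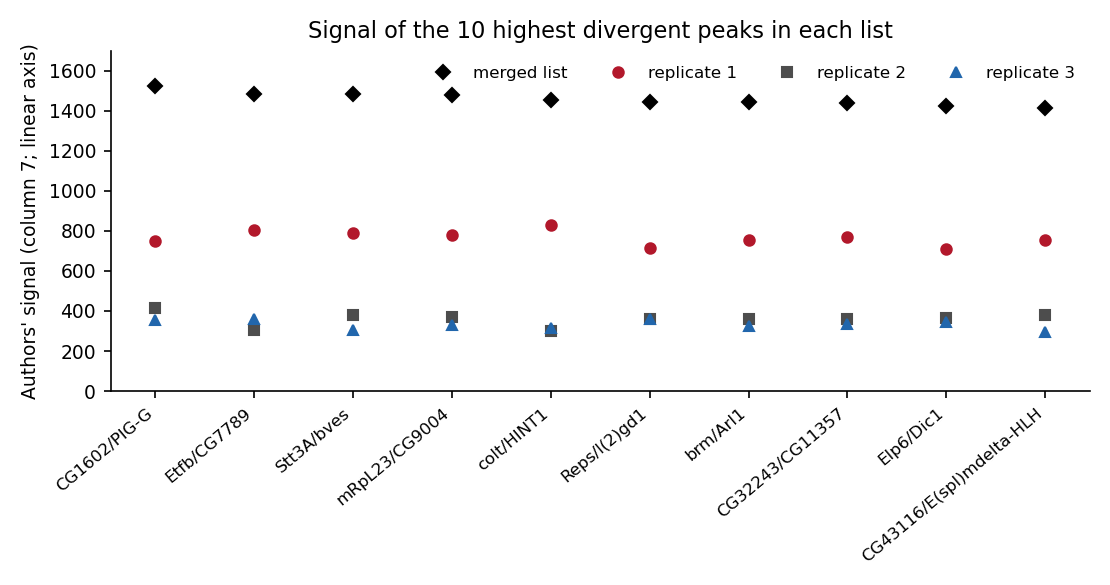
Signal of the 10 divergent peaks of highest signal (y axis, linear) in the merged list (diamonds) and in replicate 1 (circles), replicate 2 (squares) and replicate 3 (triangles), with the head-to-head pair named on the x axis. Replicate 1 lies between 708.3 and 829.6 at each of the 10, above replicates 2 and 3.

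Of the 671 members, 582 (86.7%) had a summit within 100 bp among the strongest 8091 regions of replicate 1, 480 (71.5%) in replicate 2 and 440 (65.6%) in replicate 3, a mean of 74.6% ± 10.9 (SD, n = 3). The single-direction peaks gave 87.9%, 73.7% and 74.4%, a mean of 78.7% ± 7.99 (SD, n = 3). Both classes were matched to the same 3 replicate lists, so these SDs are not the spread of the difference between the classes. The members were matched less often in each of the 3. Matched in all 3 were 332 members (49.5%, Wilson interval 45.7 to 53.3%), against 979 single-direction peaks (55.8%, 53.4 to 58.1%). Over 4 equal groups of members by signal, from the strongest to the weakest, the share was 85.1%, 69.6%, 38.9% and 4.17%, so most of the weakest group had a match in fewer than 3 replicates at this list length. The median signal was near that of the single-direction peaks, 284.4 against 281.7. In the replicate lists the ratio of the medians, divergent over single-direction, was 1.03, 1.05 and 0.982 (mean 1.02 ± 0.0333, SD, n = 3). With 3 replicates an exact sign-flip test cannot give a p below 0.25, and none is given.

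Zaf1 was found at a minority of head-to-head pairs. Of the 2667 pairs, formed by 5052 of 13945 protein-coding genes, 583 (21.9%) had at least 1 member. In the replicate lists the share was 22.5% ± 4.19 (SD, n = 3), and replicates 1, 2 and 3 gave 27.1%, 21.2% and 19.0%. Of all pairs, 12.6% had a member matched in both other replicates when replicate 1 was left out, 13.5% for replicate 2 and 15.2% for replicate 3. Of the 8893 protein-coding genes outside such pairs, 1182 (13.3%) were the nearest gene of a single-direction peak, but a pair offers more start sites than a gene, and the shares are not compared. Among pairs whose start sites were up to 100 bp apart, 18.2% had a member, and 16.0% at 101 to 200 bp. The share was 23.1% at 201 to 300 bp, 26.3% at 301 to 400 bp and 25.8% at 401 to 500 bp. It was 23% at 501 to 750 bp and 20.8% at 751 to 1000 bp. Wilson intervals were 12.5 to 20.1% in the lowest and 22.2 to 30.8% in the highest bin. These bins were picked after all were seen, so the intervals are not a test. Wider pairs also have a longer window. From the narrowest to the widest bin, members per kb of window were 0.132, 0.144, 0.185, 0.212, 0.243, 0.196 and 0.182. In these values pairs are binned by their closest start sites and members by those nearest the summit. By chromosome arm the share was 21.6% on 2L, 17.7% on 2R, 25.7% on 3L, 20.4% on 3R, 25.8% on X and 1 of 11 pairs on chromosome 4.

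Within the 500 bp of a start site that the rule allows, summits of members lay mostly between the start sites. Of the 671, 384 (57.2%, Wilson interval 53.5 to 60.9%) lay between the TSSs, which make up 29.1% of the length of the windows searched. This corresponds to 1.60 summits per kb between the TSSs and 0.492 summits per kb in the 500 bp beyond either one, a ratio of 3.26. A summit beyond a pair but nearer to a TSS without a partner was classed as single-direction. This lowers the density beyond the TSSs by an amount that was not measured, so the values are a description. In the replicate lists 59.7% ± 4.0 of the summits (SD, n = 3) lay between the TSSs. Peaks above the median signal of the list gave 65%, and over the 4 groups by signal the share was 66.1%, 64.3%, 56.3% and 42.3% from the strongest to the weakest. Some 145 members (21.6%) lay within 50 bp of the midpoint of the pair.

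The place of the summit differed with the distance between the start sites, which in part fixes it. A member cannot lie farther upstream than the midpoint of its pair, so in tight pairs most of the window lies downstream. The length between the TSSs was 5.34% of the window up to 100 bp and 13.0% at 101 to 200 bp. It was 20.6% at 201 to 300 bp and 25.8% at 301 to 400 bp. The offsets and shares are given as a description. In pairs with TSSs up to 100 bp apart, 5 of 60 summits (8.33%) lay between them and the median summit lay 86.5 bp downstream of the nearest TSS. At 101 to 200 bp, 49.2% lay between them, with a median offset of 9 bp. At 201 to 300 bp the share was 68.3% and the median offset -54 bp, and at 301 to 400 bp 70.2% and -66.5 bp. In wider pairs the share was 66.0%, 53.4% and 60%, while the length between the TSSs grew to 46.4% of the window. The tightest pairs matched in each replicate were CG3032/CG4593, with TSSs 6 bp apart and the summit 90 bp inside CG3032, SerRS/CG17260 (8 bp apart) and CG2004/CG1785 (12 bp apart). SerRS encodes seryl-tRNA synthetase. The widest were RpS7/Anp (1000 bp), CG31848/CG44085 (993 bp) and ND-75/CG1632 (983 bp), and the summit of RpS7/Anp lay 6 bp upstream of RpS7, a protein of the small ribosomal subunit.

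**Figure D2:**
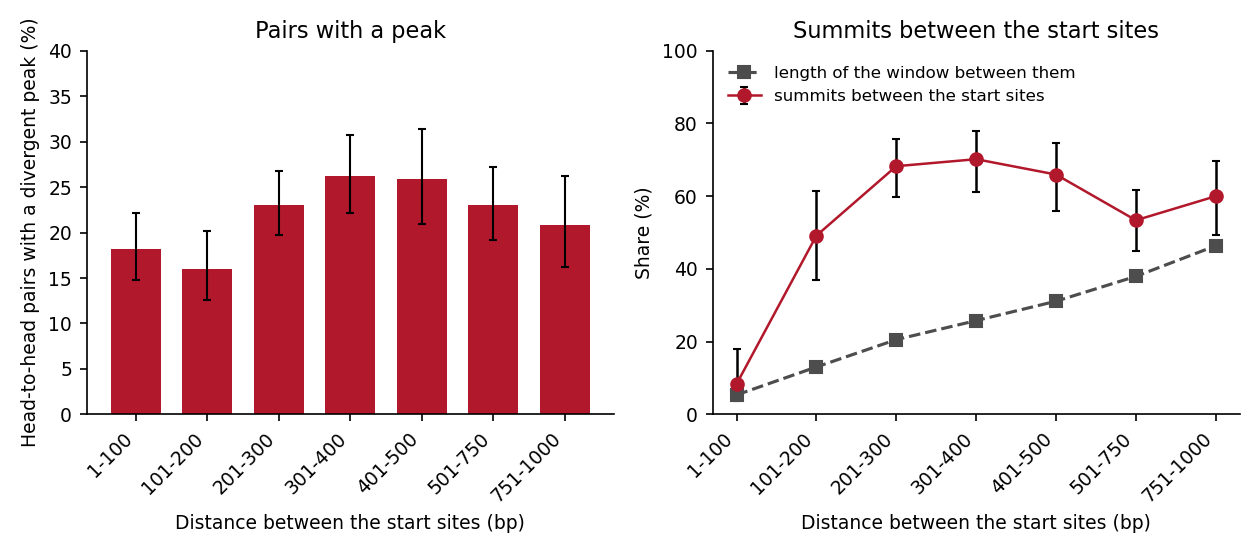
Left, share of head-to-head pairs with a member (y axis, %) by the distance between the start sites (x axis, bp), with 95% Wilson intervals. Right, share of member summits between the start sites (circles, Wilson intervals) and the share of the searched length between them (squares), which the summits exceed most at 201 to 400 bp. Pairs are binned by their closest start sites and members by the start sites nearest their summit.

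Relative to the nearest TSS, the median offset of members was -22 bp (quartiles -108.5 and 86 bp, negative upstream), against -118 bp (-253 and 43 bp) for single-direction peaks. Within 150 bp of the TSS lay 67.8% of members and 41.0% of single-direction peaks. Upstream lay 56.6% of members (Wilson interval 52.9 to 60.3%) and 68.7% (66.5 to 70.8%) of single-direction peaks, a difference of -12.0 percentage points. In a head-to-head pair, a summit farther upstream than the midpoint is nearer to the partner. The definition thus bounds how far upstream a member can lie, so the offsets are given as a description and no test of them is reported. With summits within 250 bp of a TSS, the difference was -3.39 points. In the replicate lists the share was 59.3% ± 4.14 for divergent peaks and 69.9% ± 1.51 for single-direction peaks (SD, n = 3).

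**Figure D3:**
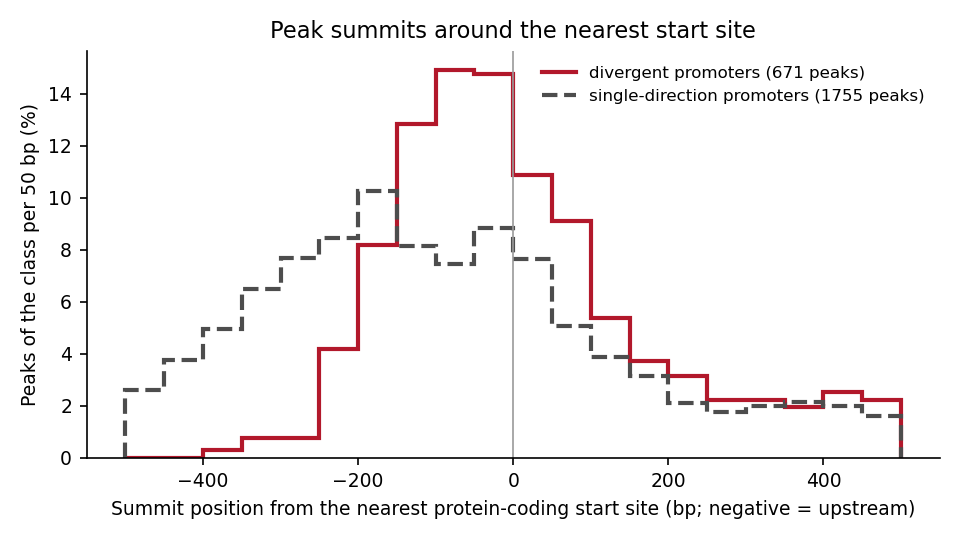
Share of peaks (y axis, % per 50 bp) by the position of the summit from the nearest protein-coding TSS (x axis, bp, negative upstream) for members (solid line) and single-direction peaks (dashed line). The median was -22 bp in members and -118 bp in single-direction peaks, and a member cannot lie farther upstream than the midpoint of its pair.

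By annotation, 41.3% of member summits lay outside transcripts, 34.9% in 5' UTRs, 21.0% in introns, 2.53% in coding exons and 2 in 3' UTRs. Single-direction summits lay outside transcripts in 34.0%, in 5' UTRs in 24.4%, in introns in 38.2%, in coding exons in 2.34% and in 3' UTRs in 1.14%.

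A pair had more than 1 member in 82 cases, 77 with 2 members, 4 with 3 and 1 with 4. These members share a pair, and the 10 members whose interval was listed for more than 1 summit also share the interval, so they are not independent. In pairs with 2 members the summits were 210 bp apart in the median, from 199 to 2569 bp. The strongest were Elp6/Dic1, CG43116/E(spl)mdelta-HLH, p38a/CG6178, Vha100-2/Vti1b and Pax/Alp12. At CG43116/E(spl)mdelta-HLH the first summit had 752.1, 380.6 and 294.2 in replicates 1, 2 and 3, and the second 706.4, 352.4 and 319.5, so both were of like strength. At Pax/Alp12, with the focal adhesion protein paxillin, the first summit had 641.4, 326.0 and 252.0. Its second summit had 145.2 in replicate 1 and 43.1 in replicate 3 and no match in replicate 2.

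The sequence around the members differed from that of single-direction peaks in promoter motifs, and not detectably in the core CACTG, part of the words enriched at this protein's peaks in earlier work on these data. Within 100 bp of the summit, of 20 motifs sought on either strand, 8 were found in a higher share of members than of single-direction peaks (40%) and 1 in a lower share (5%), at an adjusted p under 0.05 (two-sided exact test of Fisher, adjusted by Benjamini and Hochberg over the 20). Members also lay within 150 bp of a TSS more often, 67.8% against 41.0%, so the windows of the classes differ in place as well. The part of this distance in the motif calls was not tested. The motif tests count regions, which are not biological replicates. The values of the replicate lists are given beside them. These lists share most of their regions and the genome sequence is fixed, so their SDs reflect only which regions each list held. They are not an independent check over samples. The DRE was in 46 members (6.86%, Wilson interval 5.18 to 9.02%) and 26 single-direction peaks (1.48%, 1.01 to 2.16%), an odds ratio of 4.85 (adjusted exact p = 8.61e-10). In the replicate lists it was in 7.68% ± 0.875 of divergent and 1.25% ± 0.292 of single-direction peaks (SD, n = 3). Motif 7 was in 16.7% of members and 6.72% of single-direction peaks, an odds ratio of 2.78 (adjusted exact p = 2.27e-11), and the replicate lists gave 16.5% ± 0.479 and 6.94% ± 0.521 (SD, n = 3). The BEAF core CGATA, which is also part of the DRE, was in 36.8% and 24.4%, an odds ratio of 1.80 (adjusted exact p = 1.38e-08).

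The ZIPIC core, the motif of another ZAD protein, was in 3.43% of members and 1.31% of single-direction peaks (odds ratio 2.67, adjusted exact p = 0.00426). In the other direction, the GAGA element GAGAG was in 23.2% of members and 37.4% of single-direction peaks, an odds ratio of 0.508 (adjusted exact p = 1.98e-10). Its share in the replicate lists was 21.4% ± 0.430 and 37.0% ± 1.46 (SD, n = 3). The TATA box TATAAA (34.0% of members against 26.2%), the ETS core CCGGAA (7.75% against 4.62%), Motif 1 (3.87% against 1.99%) and the STAT motif TTCNNNGAA (6.86% against 4.44%) also passed the threshold. The core CACTG was in 42.9% of members (39.2 to 46.7%) and 41.3% of single-direction peaks (39.0 to 43.6%), a difference of 1.67 percentage points (adjusted exact p = 0.616). The sign of this difference turned in peaks above the median signal (-2.02 points) and in other settings. In the replicate lists it was in 42.6% ± 0.586 and 41.3% ± 0.412 (SD, n = 3). The 7-mer CACAGTG was in 4.32% of members and 6.04% of single-direction peaks (adjusted exact p = 0.188).

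**Figure D4:**
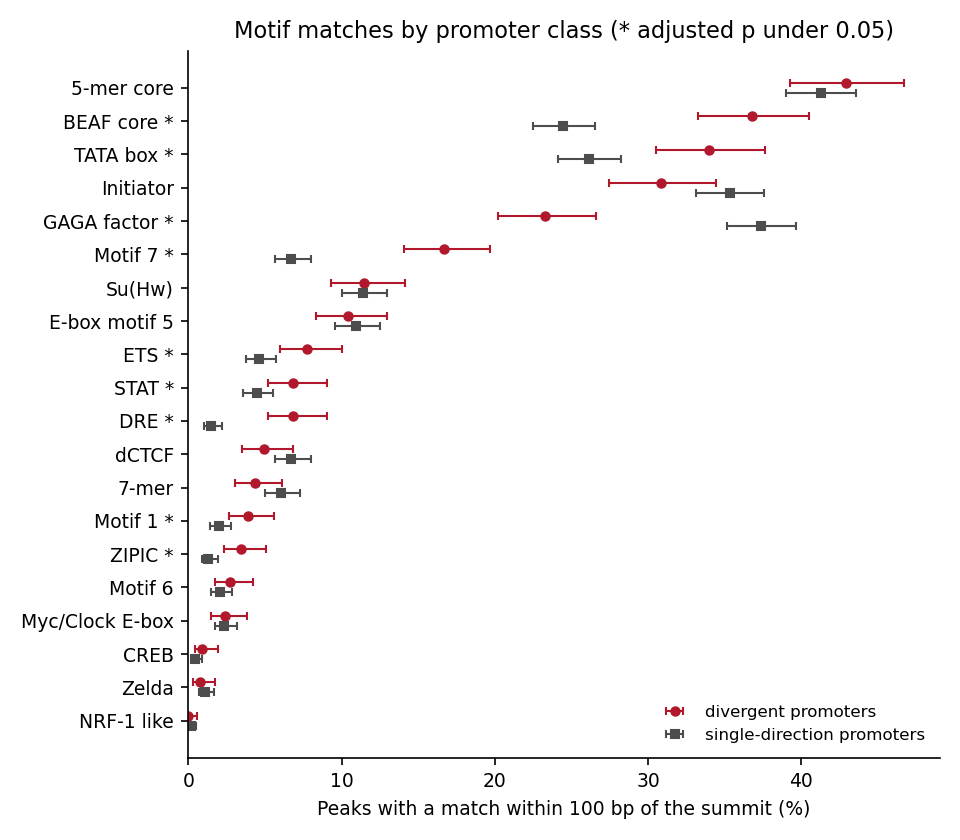
Share of peaks with a match within 100 bp of the summit (x axis, %) for 20 motifs (y axis), for members (circles) and single-direction peaks (squares), with 95% Wilson intervals. The intervals of DRE, BEAF core, Motif 7, TATA box, ZIPIC, ETS and GAGA do not overlap, and those of the 5-mer core (42.9% against 41.3%) do.

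Base composition moved with the class. The GC content of the 201 bp windows had a median of 38.3% in members and 40.8% in single-direction peaks. In a logistic model with the GC content of each window and its square, 7 of the motifs passed the threshold: DRE (odds ratio 4.47), Motif 7 (2.72), ZIPIC (2.56), Motif 1 (2.09), ETS (1.98), BEAF core (1.80) and GAGA (0.562). In this binomial model the TATA box (odds ratio 1.23, adjusted p = 0.106) and STAT (1.52, adjusted p = 0.0718) did not. Among windows of 36 to 42% GC, 140 and 357 in number, DRE and the BEAF core passed. Motif 7 differed by 6.06 points (adjusted exact p = 0.255), GAGA by -10.7 points (adjusted exact p = 0.164) and ZIPIC by 1.61 points (adjusted exact p = 0.563). With windows of 50 bp ZIPIC did not pass the threshold either (adjusted exact p = 0.118). Motif 1, the TATA box, ETS and STAT also lost the call with the peaks matched in all 3 replicates (adjusted exact p = 0.0968, 0.105, 0.0982 and 0.505). Leaving out replicate 1 ended the same 4 calls (0.145, 0.151, 0.12 and 0.493), replicate 2 ended those of Motif 1 and STAT (0.186 and 0.301) and replicate 3 those of Motif 1, the TATA box and ETS (0.0845, 0.0713 and 0.0601). GC content also fell with the strength of the peak. Its median was 33.8% in the strongest of the 4 groups of members, 37.3% and 40.3% in the next, and 41.8% in the weakest, and single-direction peaks gave 34.8%, 40.3%, 43.8% and 44.3%. The TATA box was in 42.9% of the strongest and 29.8% of the weakest of these groups of members.

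Across all 6-mers, 30 were in a higher share of members (1.44%) and 30 in a lower share (1.44%), at an adjusted exact p under 0.05. Of the 5 higher ones of smallest p, CGATAG was in 15.2% of members and 5.81% of single-direction peaks. TATCGA was in 19.2% and 8.66%, and ATCGAT in 14.9% and 6.78%. CGATAG holds the BEAF core, and TATCGA and ATCGAT are parts of the DRE. The other two were AATTAA (37.6% and 26.0%) and AAATTA (41.0% and 29.3%). Of the 30 higher 6-mers, 19 held only A and T and 4 held CGATA or TCGAT. Of the 5 lower ones of smallest p, GAGAGA was in 8.49% of members and 18.5% of single-direction peaks, AGAGAG in 10.9% and 21.0%, and GAGAGC in 11.2% and 19.3%. The other two were AGCGAG (8.05% and 15.1%) and CTCTCA (5.66% and 11.9%). Of the 30 lower ones, 7 held GAGAG, and 0 of either group held CACTG. At 36 to 42% GC there was 1 call, against 60 in all windows, and with peaks matched in all 3 replicates there were 17 calls. Without replicate 1, 2 or 3 there were 16, 32 and 37.

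Matches to the DRE lay mostly between the start sites. Of the 46 DRE matches near member summits, 40 (87.0%, Wilson interval 74.3 to 93.9%) lay between the TSSs, which held 54.1% of the bases searched. Of the Motif 7 matches 68.2% did, at a median of 32 bp from the nearer TSS, and of the TATA box matches 71.3%, at a median of 125 bp. Matches to CACTG lay between the TSSs in 53.0% and GAGA matches in 48.7%, both near the share of bases. Motif 1 matches, 27 in number, lay at a median of 13 bp from the nearer TSS.

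The motifs common at members were also common at head-to-head pairs without a peak. The stretches between TSSs 100 to 300 bp apart were compared for 183 pairs with a member and 690 pairs with no summit of the list within 500 bp of either TSS. Of 20 motifs, 0 differed at an adjusted p under 0.05 (0% higher and 0% lower), and 4 did at an unadjusted p (Fisher's exact test, two-sided). The DRE was in 11.5% of the stretches with a member and 15.7% of those without a peak. The BEAF core was in 47.5% and 58.0% (unadjusted exact p = 0.0121), and Motif 7 in 25.7% and 17.4% (unadjusted exact p = 0.0148). CACTG was in 38.8% and 36.2%, a difference of 2.57 percentage points (adjusted exact p = 0.786). Without replicate 1, the BEAF core passed the threshold, in 41.4% of 111 stretches with a member and 58.0% of 690 without a peak (adjusted exact p = 0.0273). With TSSs 200 to 400 bp apart Motif 7 did, in 29.6% of 230 and 18.6% of 679 (adjusted exact p = 0.0152).

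A wider set of genes allowed binding to be compared in both classes. Windows of 201 bp, centred 50 bp upstream of a start site, were taken once per plus-strand gene of a head-to-head pair and once for each other gene at its most upstream start site. A head-to-head gene counted as with a member when its pair had one, also where the summit lay nearer to the minus-strand partner. Any other gene counted as with a peak only when it was itself the nearest gene of the summit, so binding was assigned by unlike rules. This gave 579 head-to-head genes with a member, 1744 without a peak, 1182 other genes with a single-direction peak and 7610 without one. In head-to-head genes, 1 of 20 motifs was higher with a member (5%) and 0 lower (0%), and 3 had an unadjusted exact p under 0.05, none of them lower. That motif was CACTG, in 47.3% with a member and 38.7% without a peak (odds ratio 1.42, adjusted exact p = 0.00604). In other genes, 7 motifs were higher with a peak (35%) and 1 lower (5%), and CACTG was in 44.6% and 32.8% (odds ratio 1.65, adjusted exact p = 3.32e-14). CACTG and the 7-mer CACAGTG were sought because earlier work on these data found them enriched at peaks of this list. A higher share of them with a peak is therefore not independent support for a link to binding.

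The link between binding and a motif was tested for a difference between the gene classes by the product term of a binomial (logistic) model with its Wald test, and 3 of 19 motifs that could be fitted passed (15.8%). For GAGA, the share was 18.8% with a member and 17.1% without a peak in head-to-head genes, against 38.8% with a peak and 23.3% without one in other genes. The ratio of the odds ratios was -0.89 ± 0.20 on the log2 scale (SE, binomial model, adjusted p = 0.000204). For the TATA box the shares were 31.4% and 33.5% in head-to-head genes, and 21.8% and 34.1% in other genes, a log2 ratio of 0.75 ± 0.18 (SE, binomial model, adjusted p = 0.00036). Motif 1 gave -0.81 ± 0.28 (SE, binomial model, adjusted p = 0.0215), a call that was lost with the peaks matched in all 3 replicates (adjusted p = 0.122), in genes with 1 TSS (0.306) and without replicate 1 (0.109) or 2 (0.182). CACTG gave -0.21 ± 0.17 (SE, binomial model, adjusted p = 0.452), a difference that was not detected. For the DRE no link to binding was detected in either class, with odds ratios of 0.961 in head-to-head genes and 1.11 in other genes (adjusted exact p = 0.902 and 0.638).

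Among the 22 gene lists, the cytosolic ribosomal proteins stood highest. Of the 58 head-to-head pairs with such a gene, 40 (69.0%) had a member, against 21.9% of all pairs, and the 49 members at these pairs were 7.30% of all members. The list was known to be rich in peaks from earlier work on these data, and the count is a description of the pairs, with no test. Of the 37 ribosomal protein genes outside head-to-head pairs, 21 (56.8%) were nearest to a single-direction peak, against 13.3% of all such genes. This was not particular to them, as the ecdysone response gave 14 of 24 (58.3%) and autophagy 2 of 4 (50%). The remaining lists were lower, at most 33.3% (peroxins, 1 of 3). In 42 of the 49 members the summit was nearer to the ribosomal protein gene than to its partner, and these summits lay at a median of -6.5 bp from its TSS (quartiles -40.2 and 12 bp). Signals of the 49 ran from 154.2 to 946.7 with a median of 355.3. The strongest was at l(1)G0320/RpS28b, with 554.9, 182.0 and 212.8 in replicates 1, 2 and 3, 111 bp upstream of l(1)G0320. RpS27/Nup37 had 444.9, 274.9 and 208.0, and RpL34b/CG8132, whose stretch is printed among the sequences, 362.2, 188.2 and 138.6. Of the 49 members, 19 held CACTG, 13 a DRE, 30 the BEAF core, 14 Motif 7, 9 GAGA and 8 the TATA box. Over all 671 members the shares were 42.9%, 6.86%, 36.8%, 16.7%, 23.2% and 34.0% in the same order, and a DRE was in 46. Matched in all 3 replicates were 33 of the 49, against 49.5% of all members.

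The other lists lay on both sides of the 21.9% of all pairs. Many of them held few pairs and no test was made, so the groups that follow describe counts and do not rank functions. Above it were the peroxins of peroxisome formation (6 of 12 pairs), mitochondrial import (4 of 10), autophagy (6 of 16), the ecdysone response (2 of 6), chaperones (7 of 25) and membrane traffic (18 of 67). Close to it were mitochondrial ribosomal proteins (13 of 61), DNA replication (5 of 24), translation factors (6 of 29) and oxidative phosphorylation (10 of 51), with aminoacyl-tRNA synthetases at 5 of 26 and RNA polymerase subunits at 4 of 21. Below it were nuclear pore (4 of 22), TFIID, general factors and Mediator (6 of 38), spliceosome (4 of 32), RNA processing and decay (2 of 18) and cuticle proteins (1 of 9). The proteasome (2 of 27), the V-ATPase (1 of 14), insulator and promoter-binding zinc finger proteins (1 of 11) and chemoreceptors (0 of 24) were lowest. Both cytosolic and mitochondrial ribosomal protein genes encode ribosomal subunits, and their shares were 69.0% and 21.3%.

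**Figure D5:**
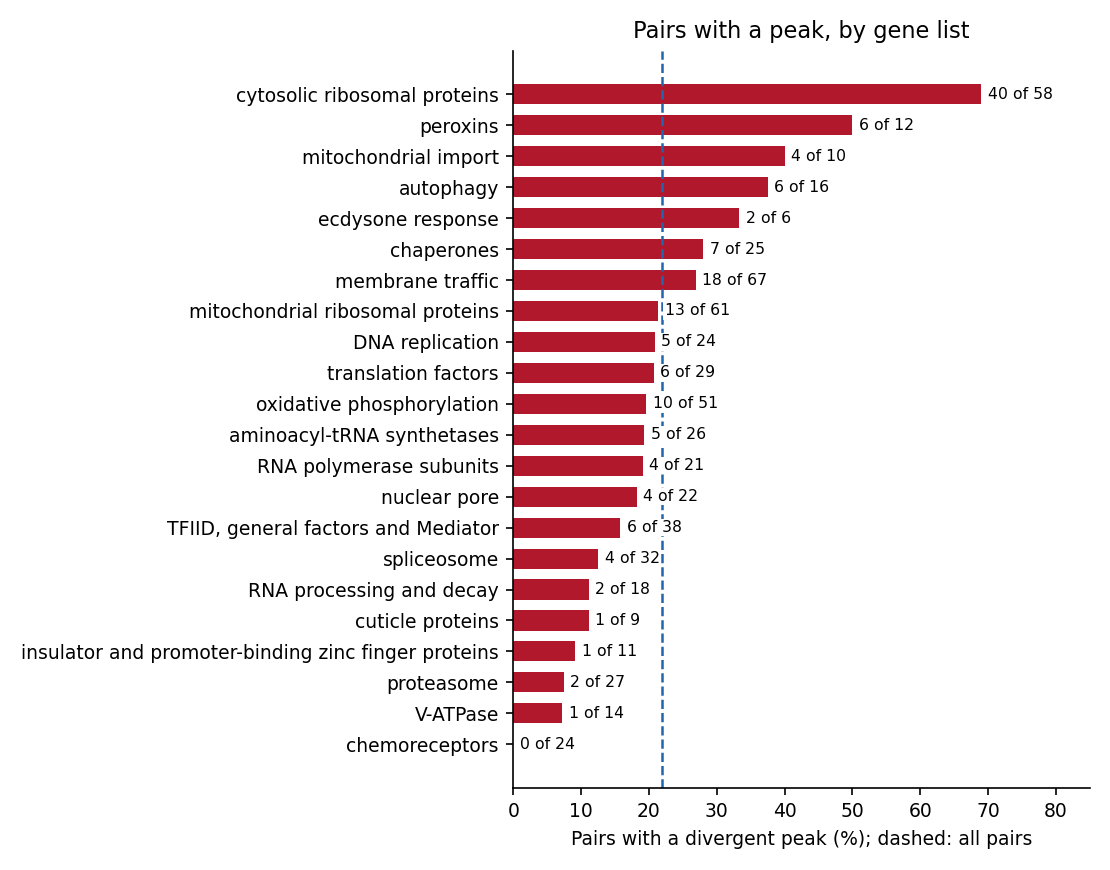
Share of head-to-head pairs with a member (x axis, %) for pairs with a gene of each of 22 lists (y axis), with the number of pairs beside each bar. The dashed line marks the 21.9% of all pairs, and cytosolic ribosomal proteins stand at 69.0%.

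The strongest member of several lists had a well-known gene beside it. CG14965/Hsp83, with the fly Hsp90, had 721.7, 231.9 and 242.1 in replicates 1, 2 and 3, 116 bp upstream of Hsp83. Vha100-2/Vti1b, with a V-ATPase subunit and a SNARE, had 653.4, 305.4 and 281.1, and Pex11ab/CG8320 520.7, 319.4 and 250.5. Both had the higher signal in replicate 1, as had the members named above. CG10584/Polr3E, with a subunit of RNA polymerase III, had 597.5, 257.6 and 176.0, and Atg8a/BTBD9, with a ubiquitin-like protein of autophagosomes, 499.9, 174.7 and 158.8. The Atg8a/BTBD9 summit lay 482 bp inside Atg8a, near the limit of the window. The strongest member of the list of RNA processing was at Rrp1/gammaTub23C (500.4, 227.3 and 208.9), and Rrp1 is a DNA repair nuclease that the list caught by its symbol. Those of the remaining lists were usp/CG4313 (372.8 in the merged list), Taf2/CalpB (657.9), Nmda1/AspRS (612.3), CG34015/eIF4H1 (599.7), ND-75/CG1632 (597.2), CG8229/Tom7 (578.8), U4-U6-60K/CG7564 (429.0), dpa/didum (406.0), Hat1/Rpn5 (379.2) and Cpr65Aw/Lcp65Ad (174.8).

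Pairs with both genes in lists had a member in 8 of 43 cases (18.6%), near the 21.9% of all pairs. At Dref/RpL13 the gene of the DRE-binding factor DREF faces a ribosomal protein gene, and the summit lay 5 bp inside RpL13, with 289.3 in replicate 1, 144.3 in replicate 2 and no match in replicate 3. RPA1/Mcm2 joins 2 genes of DNA replication, the single-strand binding protein and a subunit of the replicative helicase. The other pairs were RpS27/Nup37, Rab18/RpL35, ATPsynCF6/Sec13, mRpS21/Droj2, Atg7/Sec6 and Cpr65Aw/Lcp65Ad, and their merged signals ran from 174.8 to 930.6.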

How the data were processed

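Per the file headers, the authors called regions for each of the 3 replicates against a control alignment and derived the IDR list on dm6 from them and the pooled replicates. Aligner and peak caller: not given in the sources used here. Deposited signal per region (column 7, from the authors) was used as given, not scaled between lists, to rank and describe. Positions and summits came from the same lists. The other value columns, the dm3 lists and the pooled list were not used here. Samples were grouped by the labels. Depth was unknown, and intervals on shares are Wilson intervals that cover counting error only.

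The members and lists were chosen with earlier results of these data known. TSSs were the starts of protein-coding transcripts of Ensembl release 115 (19607 on the 6 assembled chromosome arms), and bases came from the Release 6 genome of RefSeq. Summits were matched to those of the strongest 8091 regions of a replicate within 100 bp. Classes of regions were compared by two-sided exact tests of Fisher, adjusted by Benjamini and Hochberg over 20 motifs or over all 6-mers, at a threshold of 0.05. Odds ratios have a small constant added to each cell. Logistic models gave the GC and product terms. Replicate lists were processed in the same way and gave means and SDs.

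Genes named were those of the 10 strongest members, the edges of the rule, the 3 tightest and 3 widest pairs matched in all replicates, the strongest member of each list, pairs with both genes in lists and the 5 strongest pairs with several members. RpL34b/CG8132, Atat/Shc and alphaCOP/CG13919 come from the printed stretches. The rule and the tests were tested on simulated data, in which 100% of 300 planted summits were put in the right class and a planted motif and 6-mer were recovered, with 0 of 18 other motifs called. Both simulated classes had random bases of the same composition. The real classes differ in GC content and in distance to the TSS, so the simulation cannot show how often such differences give calls. Alternatives were other windows, distances and peak sets, 1 peak per pair, each replicate left out, and the GC restrictions. The product term, the GC model, the GC range, the upstream summits, the differences within replicates and the motif calls between the TSSs with their alternatives (pairs 200 to 400 bp apart and each replicate left out among them) were chosen after seeing the data. Tests used scipy 1.17.1 and statsmodels 0.14.6 in Python 3.11.15, tables numpy 2.4.6 with pandas 2.3.3, and plots matplotlib 3.10.9.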

Additional observations from a re-analysis of the deposited data

Results flagged for a closer look

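For 3 motifs the link between binding and the motif differed between head-to-head genes and other genes, by the product term of a binomial (logistic) model over 19 motifs. The log2 ratio of the odds ratios, head-to-head over other genes, was -0.89 for GAGA, 0.75 for the TATA box and -0.81 for Motif 1. GAGA was in 18.8% of head-to-head genes with a member and 17.1% without a peak, against 38.8% and 23.3% of other genes. With genes of 1 TSS, the binomial model gave GAGA -1.29 (adjusted p = 4.24e-05) and the TATA box 0.83 (adjusted p = 0.00368). For Motif 1 the binomial model gave -0.52 (adjusted p = 0.306) with genes of 1 TSS, -0.78 (adjusted p = 0.122) in matched peaks, and -0.79 and -0.69 (adjusted p = 0.109 and 0.182) without replicate 1 or 2. Why the classes differ was not tested, and GC content, which differs between them, was not a term of this model. Binding was also assigned by pair in head-to-head genes and by nearest gene in other genes. The part of this unlike rule in the product terms was not tested.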

How the results depend on the processing

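Among the 142 alternatives to the values that answer a comparison, 87 kept their direction and call or stayed within the replicate spread, 44 moved, 5 lost the call and 6 turned their sign. These 6 were all of the CACTG difference between the classes, which did not pass the threshold in any setting: -2.02 points in peaks above the median signal, -0.53 with TSSs within 500 bp and in matched peaks, -1.72 with the 7-mer in place of the core, and -0.32 to 0.96 without 1 replicate. Among 117 for single motifs, 79 kept the call and 38 lost it, most often Motif 1, ETS, STAT and the TATA box. The kept and lost calls include those of the upstream difference, which lost its call with summits within 250 bp (-3.39 points). These calls are not read as results, because the definition bounds the offset. The share of summits between the TSSs was 63.7% within 250 bp, 65% in peaks above the median signal, 62.3% in matched peaks and 61.5 to 62.1% without 1 replicate. The signal ratio was 1.09 within 250 bp, 1.06 with TSSs within 500 bp, 1.08 in matched peaks and 1.07 to 1.11 without 1 replicate, and lay below 1 in peaks above the median signal (0.988) and with 1 peak per pair or gene (0.981). By construction, fewer members and pairs remained in peaks above the median signal (343 members, 11.8% of pairs), in matched peaks (332, 11.7%) and without 1 replicate (359 to 434, 12.6 to 15.2%). Matching in all replicates gave 77.3% in peaks above the median signal, 34.6% within 50 bp, 61.4% within 250 bp and 53.5 to 64.7% without 1 replicate.

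The count of 6-mer calls depended most on the setting: 212 within 250 bp of a TSS, 95 with TSSs within 500 bp, 12 in peaks above the median signal, 39 with 1 peak per pair, 17 in matched peaks, 19 and 163 with windows of 50 and 150 bp, 1 at 36 to 42% GC, 92 with upstream summits and 16 to 37 without 1 replicate. Motif calls were 4 with windows of 50 bp and 2 at 36 to 42% GC. Between the TSSs, 1 motif was called with pairs 200 to 400 bp apart, and 0 to 1 without 1 replicate. The Motif 1 product term was -0.78 in matched peaks, -0.52 for genes with 1 TSS and -0.87 to -0.69 without 1 replicate. The causes were not tested. The samples form 1 group, so no replicate block between groups applies. Both classes were measured in each replicate, and the difference within the 3 replicates averaged 6.43 ± 0.968 points for the DRE and -15.6 ± 1.37 for GAGA, with the same sign in 3 of 3 (exact sign-flip permutation p = 0.25, the smallest that 3 replicates allow). The replicate lists share most of their regions and the genome sequence is fixed, so the shared sign is not an independent check over samples. The list of peaks was made from all 3 replicates, so a replicate left out here had part in it.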
